A study of Glycine max with 6 samples.

Results

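The NAC genes of soybean (Glycine max) were followed in leaf RNA of the genotypes HN44 and SN14. A gene was chosen by its name: its NCBI gene number had to carry a soybean symbol or synonym of the form NAC plus a number, with or without the prefix Gm. This gave 42 of the 41759 genes in the table. A further 8 NAC genes of the RefSeq list had no row in that table, and SNAC38 and SNAC41 were left out because their only names do not have that form. Both genotypes were grown in an experimental field under natural conditions, and each is represented by 3 leaf libraries sequenced on a BGI platform. The labels name no treatment, plant age or leaf position, and they do not say which genotype uses water more efficiently or whether separate plants were used for its libraries. All p-values therefore describe differences relative to the spread of these libraries, part of which may be technical. Levels are FPKM, already scaled to gene length and sequencing depth, so the depth itself and the counting error are unknown. Where 3 values are given for a genotype, they follow the library numbers 1, 2 and 3.

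NAC proteins are plant-specific transcription factors named after the founding genes NAM, ATAF and CUC. A conserved N-terminal NAC domain binds DNA and pairs the proteins with each other, and a variable C-terminal region usually activates transcription. In leaves, members of the family are known to act in ageing, in responses to drought, salt and abscisic acid, in cell death and in the making of secondary walls.

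Leaf identity was visible in all libraries. The summed FPKM of 6 leaf marker genes, for the Rubisco small subunit and light-harvesting proteins, ran from 35515 in HN44-1 to 76381 in SN14-1, while the seed storage gene GY3 never exceeded 0.07 FPKM. Nodule markers were not analysed here. HN44-3 stands apart from a usual replicate. Of 1980 genes at a mean of 5 FPKM or more with over 2-fold between HN44-1 and HN44-2, it lay between them in 1966. By the same rule SN14-1, SN14-2 and SN14-3 lay between the other SN14 libraries in 42.8%, 67.9% and 64.0% of genes. Among the 24 NAC genes tested below, HN44-3 lay between the other HN44 libraries in 23, NAC6 being the exception. SN14-1, SN14-2 and SN14-3 did so within SN14 in 6, 11 and 8. Over all tested genes HN44-3 lay between in 73.6%. The fits with 6 libraries treat HN44-3 as a separate replicate and their errors may be too small, so results are also given without it.

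Most NAC genes with a clear leaf signal were moderately expressed. Of the 42 genes, 33 had a value above 0 in every library and 17 had a mean of at least 10 FPKM over the 6 libraries. The filter for testing, at least 1 FPKM in at least 3 libraries, was passed by 24 genes, with means from 1.19 to 68.4 FPKM. A gene can pass it through 1 genotype alone, as NAC4 did, and such a gene had to differ. Together the 42 genes summed to 584, 700 and 623 FPKM in HN44 and to 164, 346 and 450 FPKM in SN14. The sums of the genotypes did not overlap, and SN14-1 was the lowest. Abundant genes weigh most in such sums, and NAC15, NAC022 and NAC2, the highest by mean, each overlapped between genotypes. The sums were not set beside those of other gene families, so they do not show that the family separates the genotypes. Fewer expressing cells and less RNA per cell cannot be told apart in bulk leaf RNA.

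**Figure D1:**
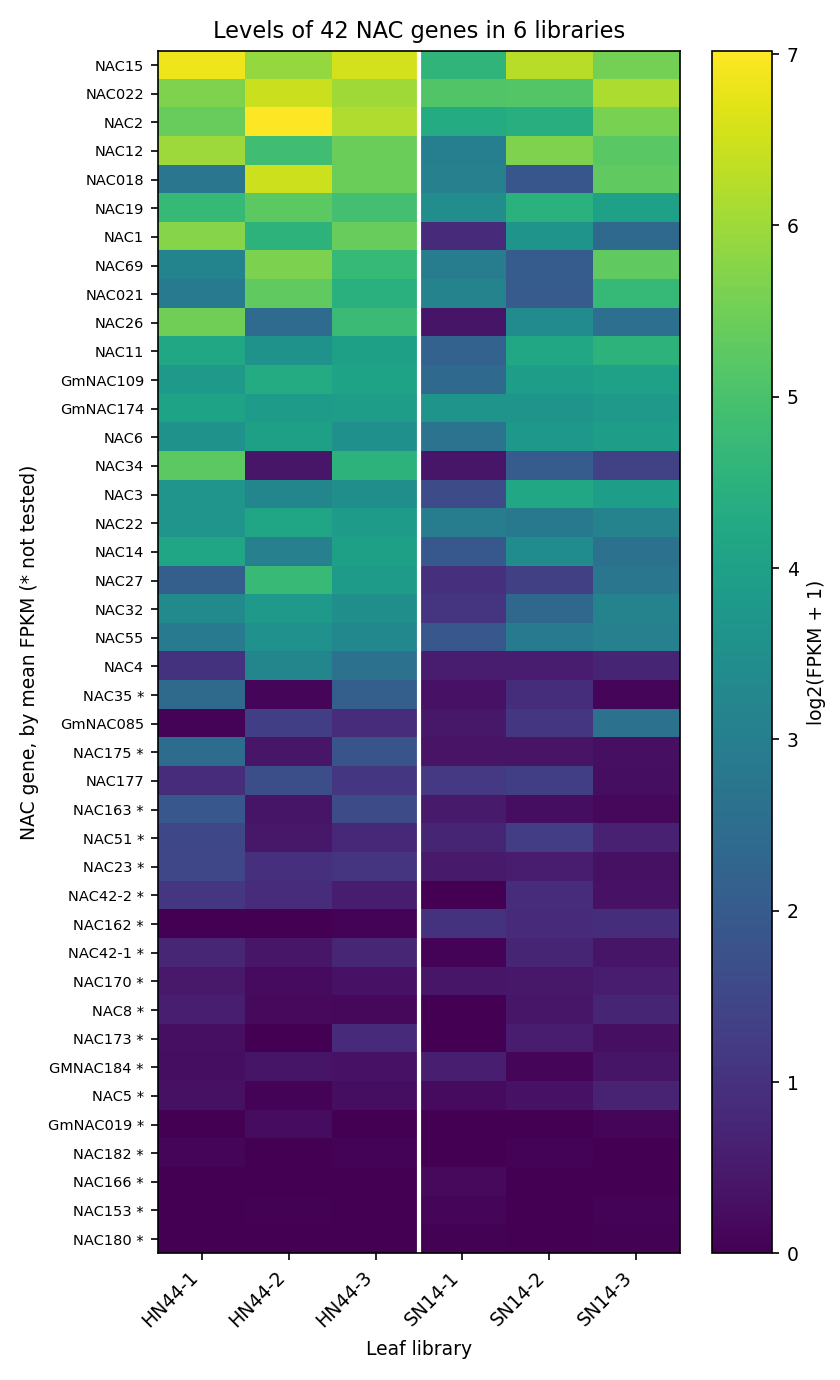
Level of each of the 42 NAC genes, as log2(FPKM + 1), with genes in rows ordered by their mean FPKM and libraries in columns; an asterisk marks the 18 genes that were not tested. NAC15, NAC022 and NAC2 lead the order, and the SN14-1 column is darker than the other SN14 columns for most of the upper genes.

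The comparison of HN44 with SN14 asks which leaf transcripts separate genotypes that differ in how efficiently they use water. One NAC gene rose with 6 libraries. NAC22, also called NAC012, stood at 11.7, 16.8 and 13.6 FPKM in HN44 and at 6.87, 6.21 and 7.73 FPKM in SN14. The genotypes did not overlap. On log2(FPKM + 1) the libraries of NAC22 spanned 0.49 in HN44 and 0.28 in SN14. The medians of all tested genes were 0.378 and 0.548. Its log2 fold change on log2(FPKM + 1) was 0.91 ± 0.19 (SE; 95% interval 0.47 to 1.35), with an adjusted p of 0.0496 by limma over all tested genes, against the threshold of 0.05. Without HN44-3 the fold change was 0.92 ± 0.25 and the adjusted p 0.25, so the call ended while the difference kept its size. The gene lies on chromosome 2, from 40991630 to 40994984 in the coordinates of the authors' table, on the plus strand.

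No tested NAC gene fell with 6 libraries by limma, where 0 had an unadjusted p under 0.05 in that direction, against 8.59% of all tested genes. Among all 27140 tested genes 2.33% rose and 1.44% fell, so 1 of 24 is close to the share of all genes. At an unadjusted p under 0.05 there were 8 NAC genes, all higher in HN44. Of all tested genes 18.7% met this rule in that direction and 27.3% in either. NAC4, whose higher level in HN44 was fixed by the filter, is among the 8. The split over all genes depended on the scaling. With the deposited FPKM 633 genes rose and 392 fell, and with median-of-ratios scaling 438 rose and 524 fell, while at an unadjusted p under 0.05 the split went from 5088 higher and 2331 lower to 3148 higher and 3650 lower. The NAC genes at an unadjusted p under 0.05 numbered 4 with that scaling and 5 with quantile normalization, all higher in HN44. Of all tested genes 25.05% and 25.23% met this rule in these fits, in either direction. With quantile normalization 3605 of those were higher in HN44 and 3243 lower. Without HN44-3 no NAC gene passed by limma, and 0.553% of all tested genes did. In that fit 4 NAC genes, NAC4 among them, had an unadjusted p under 0.05, against 14.1% of all tested genes. With the filter recomputed on the remaining 5 libraries, 23 NAC genes were tested, none passed, against 0.0571% of all genes, and 3 had an unadjusted p under 0.05, against 13.5% of all genes.

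The direction of the fitted change was the same in nearly all members. All of them were measured in the same 6 libraries, so they are not separate observations of a genotype difference. The fitted log2 fold change was above 0 in 23 of 24 tested NAC genes, and in 64.0% of all tested genes. NAC4 is one of the 23, with a sign fixed by the filter. The median was 0.95 for the NAC genes and 0.17 for all tested genes, and 23 of the 24 lay above that overall median. After median-of-ratios scaling, which brought the overall median to 0.0047, the NAC median was 0.75 and 23 of 24 were still above 0. Without HN44-3 these figures were 0.92 and 23 of 24. Without SN14-1 the median was 0.71 and 19 of 24 were above 0, against 66.4% of all tested genes, and NAC3, NAC6, NAC11 and NAC12 changed sign. Over all 42 NAC genes with no filter the median was 0.59, against 0.05 for all 41759 genes, and 33 of 42 were above 0, against 58.0% of all genes.

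**Figure D2:**
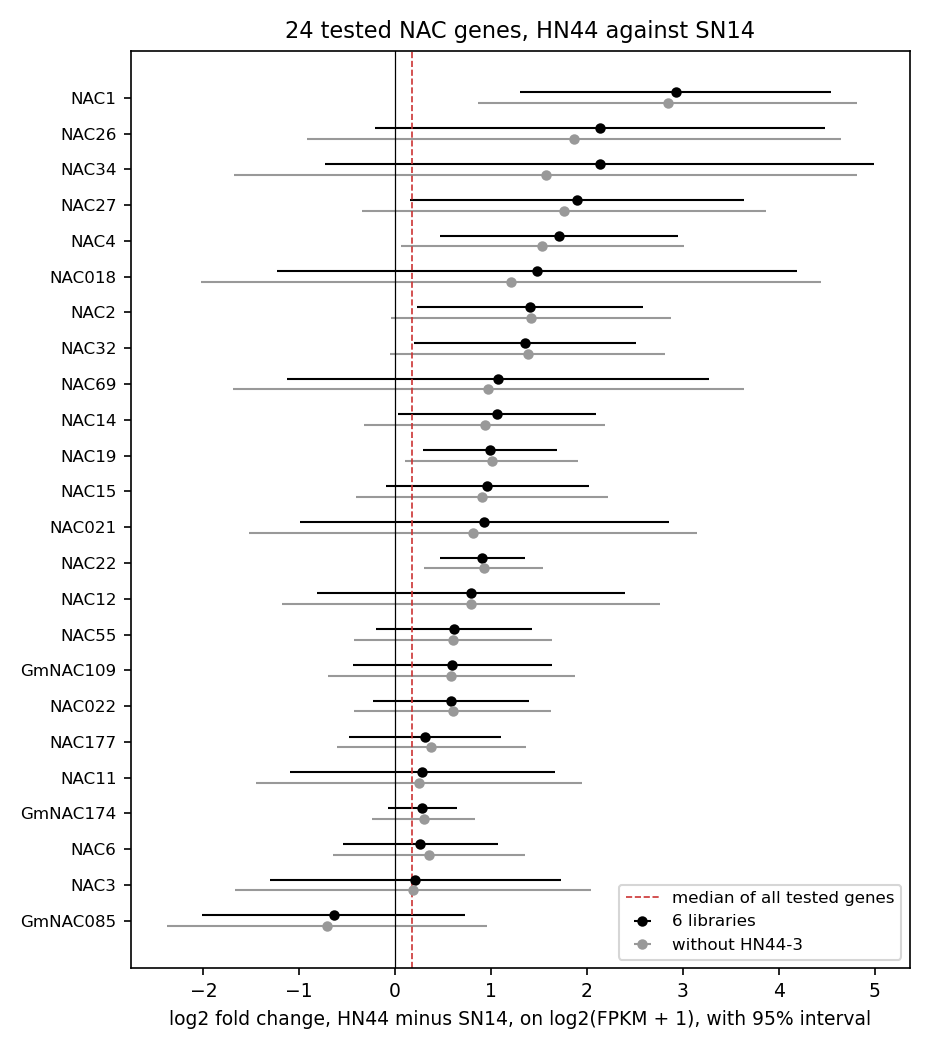
Log2 fold change of HN44 minus SN14 on log2(FPKM + 1) for the 24 tested NAC genes, with 95% intervals from the fit with 6 libraries (black) and the fit without HN44-3 (grey); the dashed line is the median of all tested genes, 0.17. GmNAC085 is the only gene with a fitted value below 0, and the interval of NAC22 is narrow beside that of NAC1, whose fitted value is larger.

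In 6 tested NAC genes the lowest HN44 library was above the highest SN14 library, namely NAC22, NAC1, NAC4, NAC19, NAC32 and GmNAC174. This is 25% of the 24, and the same held for 23.3% of all tested genes. NAC4 met the filter through HN44 alone, so its lack of overlap was fixed in advance and is no support for a difference. None of the 24 had all HN44 libraries below SN14, where 10.5% of all tested genes did. Apart from NAC22, the adjusted p of these genes ranged from 0.066 to 0.269 in limma with 6 libraries.

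Genes tied to cell death and leaf ageing are described first. Expression of NAC1, NAC5 and NAC6 in tobacco leaves is known to bring on cell death and senescence markers. NAC1 had the largest fitted fold change of the family. It stood at 53.0, 22.3 and 41.1 FPKM in HN44 and at 0.82, 11.5 and 4.30 FPKM in SN14. The groups did not overlap, but SN14-2 was well above the other SN14 libraries. The log2 fold change was 2.93 ± 0.68 (SE; 95% interval 1.30 to 4.55), with a limma adjusted p of 0.066 with 6 libraries and 0.258 without HN44-3. Single libraries moved this value. As a fold it was 7.60 with 6 libraries, 12.1 without SN14-2, the highest SN14 library, where it passed (limma adjusted p = 0.033), and 4.61 without SN14-1, where it did not (limma adjusted p = 0.0787). NAC1 lies on chromosome 1, from 6060647 to 6062270, on the minus strand.

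NAC6, which was renamed GmNAC81 and acts in a soybean cell death route that joins osmotic and endoplasmic reticulum stress, stood at 11.2, 14.9 and 10.5 FPKM in HN44 and at 5.41, 12.5 and 13.9 FPKM in SN14. The genotypes overlapped, with SN14-1 alone at a lower level. Its fitted log2 fold change was 0.26 ± 0.34 (SE; limma adjusted p = 0.637). NAC5 was barely detected, between 0.05 and 0.59 FPKM, and was not tested.

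NAC15 and GmNAC085 are known for contrasting roles in leaf senescence when expressed in Arabidopsis; NAC15 carries the synonym GmNAC065. NAC15 had the highest mean of the family and stood at 114, 59.1 and 91.5 FPKM in HN44, and at 23.2, 76.5 and 45.5 FPKM in SN14. SN14-2 exceeded HN44-2, so the genotypes overlapped. The log2 fold change was 0.96 ± 0.45 (SE; limma adjusted p = 0.215). GmNAC085 (LOC100811301) was low in most libraries, at 0.04, 1.46 and 0.85 FPKM in HN44 and 0.36, 1.15 and 5.13 FPKM in SN14. It was the only tested member with a fitted value below 0, at -0.64 ± 0.58 (SE; limma adjusted p = 0.491), and its highest value came from SN14-3 alone.

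Several members have been linked to salt, drought or osmotic stress. NAC2, a soybean gene that lowered stress tolerance when expressed in tobacco, stood at 41.1, 129 and 71.7 FPKM in HN44 and at 18.9, 20.7 and 48.2 FPKM in SN14. HN44-1 lay below SN14-3. Its log2 fold change was 1.41 ± 0.50 (SE; limma adjusted p = 0.135). NAC27, also named SIN1 for salt-induced NAC, which promotes root growth under salt, stood at 3.34, 26.1 and 13.4 FPKM in HN44 and at 0.94, 1.52 and 5.76 FPKM in SN14. HN44-1 was again the low HN44 library and lay below SN14-3. The fitted value was 1.89 ± 0.73 (SE; limma adjusted p = 0.159).

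NAC19 carries the synonym NAC20, a name under which a soybean gene raised salt and freezing tolerance in Arabidopsis. It stood at 24.9, 37.3 and 29.2 FPKM in HN44 and at 9.80, 21.3 and 15.0 FPKM in SN14. All HN44 values were above all SN14 values. The log2 fold change of 0.99 ± 0.30 (SE) missed the threshold, with a limma adjusted p of 0.103 with 6 libraries and 0.326 without HN44-3.

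NAC3 and NAC4, both described as stress-responsive soybean genes, differed from each other in pattern. NAC4 stood at 1.04, 8.41 and 5.25 FPKM in HN44 and at 0.45, 0.45 and 0.64 FPKM in SN14, so it was tested on its HN44 values alone. The lowest HN44 library was close to SN14 and the highest 8.09-fold above that lowest one. Its fitted value was 1.71 ± 0.52 (SE; limma adjusted p = 0.106). Because NAC4 entered the fit only through its HN44 libraries, a difference was fixed in advance and this p is no support for one. Leaving out any HN44 library took NAC4 below the filter. NAC3, with the synonym SNAC23, stood at 11.5, 8.34 and 10.3 FPKM in HN44 and at 2.10, 17.4 and 14.0 FPKM in SN14. SN14-1 was the lowest library and the other SN14 libraries were the highest. NAC11, a gene that raised salt tolerance in Arabidopsis, had the same arrangement in SN14, at 17.4, 11.2 and 15.0 FPKM in HN44 and 3.65, 17.4 and 22.3 FPKM in SN14. Its fitted value was 0.28 ± 0.58 (SE; limma adjusted p = 0.774).

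NAC42-1, known in soybean as an activator of the glyceollin phytoalexin genes, did not reach 1 FPKM in any library, with values from 0.05 to 0.70 FPKM. NAC42-2 stood between 0 and 1.14 FPKM and was listed at 0 in SN14-1. Neither was tested.

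For the remaining tested genes no role is given here. NAC022, with the synonyms NAC7 and NAC8, had the next highest mean after NAC15, at 49.6, 87.2 and 63.9 FPKM in HN44 and 33.4, 34.3 and 69.8 FPKM in SN14. NAC12 stood at 62.4, 28.4 and 42.1 FPKM in HN44 and at 7.21, 49.7 and 36.3 FPKM in SN14, so that 1 SN14 library set its lower SN14 mean. NAC32 (LOC100170751) stood at 9.35, 12.7 and 10.4 FPKM against 1.10, 4.17 and 7.81 FPKM, with no overlap and a fitted value of 1.36 ± 0.49 (SE; limma adjusted p = 0.139). GmNAC174 (LOC100500255) was the steadiest member. Its values were 15.9, 13.5 and 14.2 FPKM in HN44 and 11.3, 11.4 and 12.6 FPKM in SN14, with a log2 fold change of 0.28 ± 0.15 (SE; 95% interval -0.08 to 0.64; limma adjusted p = 0.269). NAC177, at 0.20 to 2.19 FPKM, had a fitted value of 0.31 that became -0.0098 without SN14-3. NAC14, NAC55 (LOC100816770) and GmNAC109 (LOC100170714) had fitted values of 1.06, 0.62 and 0.60, and all 3 overlapped between genotypes.

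Variation between libraries of the same genotype was large for this family. On log2(FPKM + 1), the median gap between the highest and lowest HN44 library was 1.00 for the 24 tested NAC genes and 0.378 for all tested genes. In SN14 the medians were 1.65 and 0.548. A gap of at least 1 within a genotype was found in 22 of the 24 NAC genes, or 91.7%, and in 24.8% of all tested genes. The difference between genotype means was larger than both gaps in 3 NAC genes, or 12.5%, NAC1, NAC22 and GmNAC174, where 22.3% of all tested genes met this. Between SN14-2 and SN14-3 alone the median difference was 0.748 for the NAC genes and 0.319 for all tested genes, so the larger spread was not found in SN14-1 alone.

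**Figure D3:**
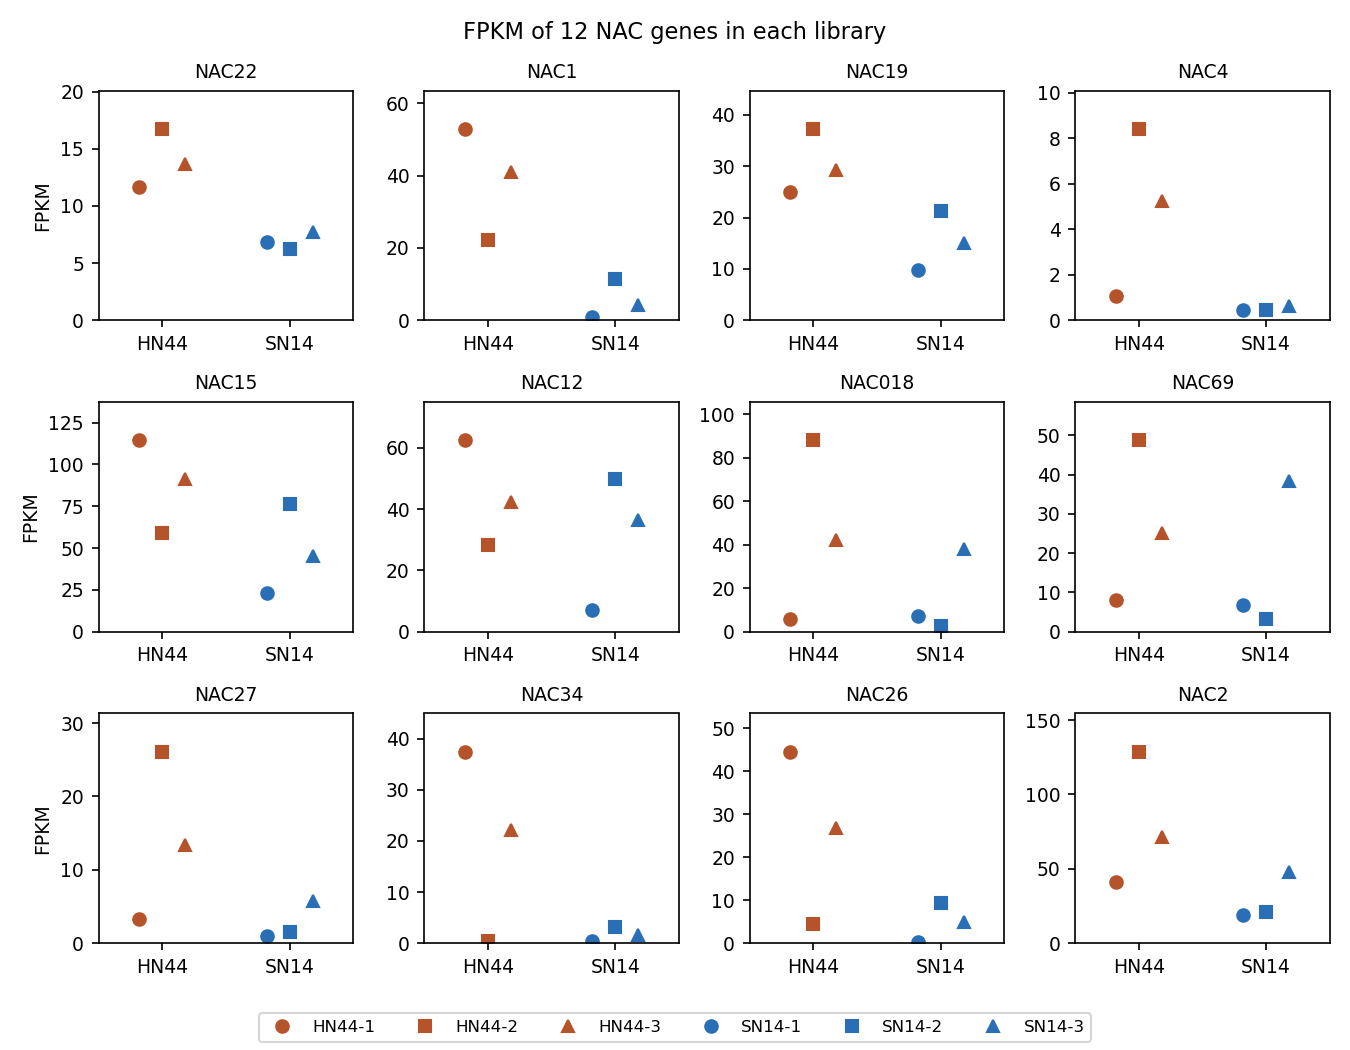
FPKM in each library for 12 NAC genes, on a linear axis from 0 for each gene; HN44 in brown, SN14 in blue, and the marker shape gives the library number. NAC22, NAC1, NAC19 and NAC4 show no overlap between genotypes, which for NAC4 was fixed by the filter. Of the 12 genes only NAC22 and NAC1 have genotype means further apart, on log2(FPKM + 1), than the libraries within each genotype.

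Within HN44, NAC genes split into those high in HN44-1 and those high in HN44-2. HN44-2 was more than 2-fold above HN44-1 in 8 of the 24, or 33.3%, and HN44-1 more than 2-fold above HN44-2 in 5, or 20.8%. The shares over all tested genes were 7.11% and 8.80%. HN44-3 adds no separate evidence here, as it lay between the others.

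NAC018, NAC69 and NAC021 were high in HN44-2 and SN14-3. NAC018 stood at 5.76, 87.9 and 42.3 FPKM in HN44 and at 7.32, 2.70 and 38.2 FPKM in SN14. HN44-2 was 15.3-fold above HN44-1. NAC69 (LOC100814504) stood at 8.02, 48.7 and 25.2 FPKM in HN44 and at 6.78, 3.11 and 38.4 FPKM in SN14. NAC021 stood at 6.37, 38.9 and 20.9 FPKM and at 7.85, 3.05 and 24.9 FPKM. In these 3 genes SN14-2 was the lowest of all 6 libraries, and HN44-1 was within the range of the low SN14 libraries or just beside it. Their fitted fold changes between genotypes, 1.48 ± 1.14, 1.07 ± 0.93 and 0.93 ± 0.81 (SE), were little larger than their errors. NAC69 and NAC021 both lie on chromosome 4, at 48062619 to 48064444 and 49623104 to 49625972, and NAC018 on chromosome 6, at 12936973 to 12938752.

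NAC34 and NAC26 had the opposite order in HN44. NAC34 stood at 37.4, 0.34 and 22.1 FPKM in HN44, and at 0.34, 3.14 and 1.54 FPKM in SN14. HN44-2 thus equalled the lowest SN14 library, and HN44-1 was 110.1-fold above HN44-2. The fitted value was 2.13 ± 1.21 (SE; limma adjusted p = 0.288), and it passed without HN44-2, at 3.62 ± 0.51 and an adjusted p of 0.0325, a fit that keeps HN44-1 and HN44-3. NAC26 stood at 44.6, 4.44 and 26.8 FPKM in HN44 and at 0.31, 9.40 and 4.95 FPKM in SN14. Its fitted value was 2.14 ± 0.99 (SE; limma adjusted p = 0.213), a fold of 4.40 that became 8.22 without HN44-2 and 2.42 without SN14-1. NAC34 lies on chromosome 8, from 13801850 to 13806283, and NAC26 on chromosome 2, from 10525565 to 10527411.

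The order within HN44 and the order of SN14-2 and SN14-3 went together. All 5 genes that were over 2-fold higher in HN44-1 than in HN44-2 (NAC1, NAC12, NAC14, NAC26 and NAC34) were higher in SN14-2 than in SN14-3. Of the 8 over 2-fold higher in HN44-2, 7 were higher in SN14-3, the exception being NAC177. Over all tested genes the corresponding shares were 73.3% of 2389 genes and 69.2% of 1930 genes, so the pattern was not found in NAC genes alone.

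**Figure D4:**
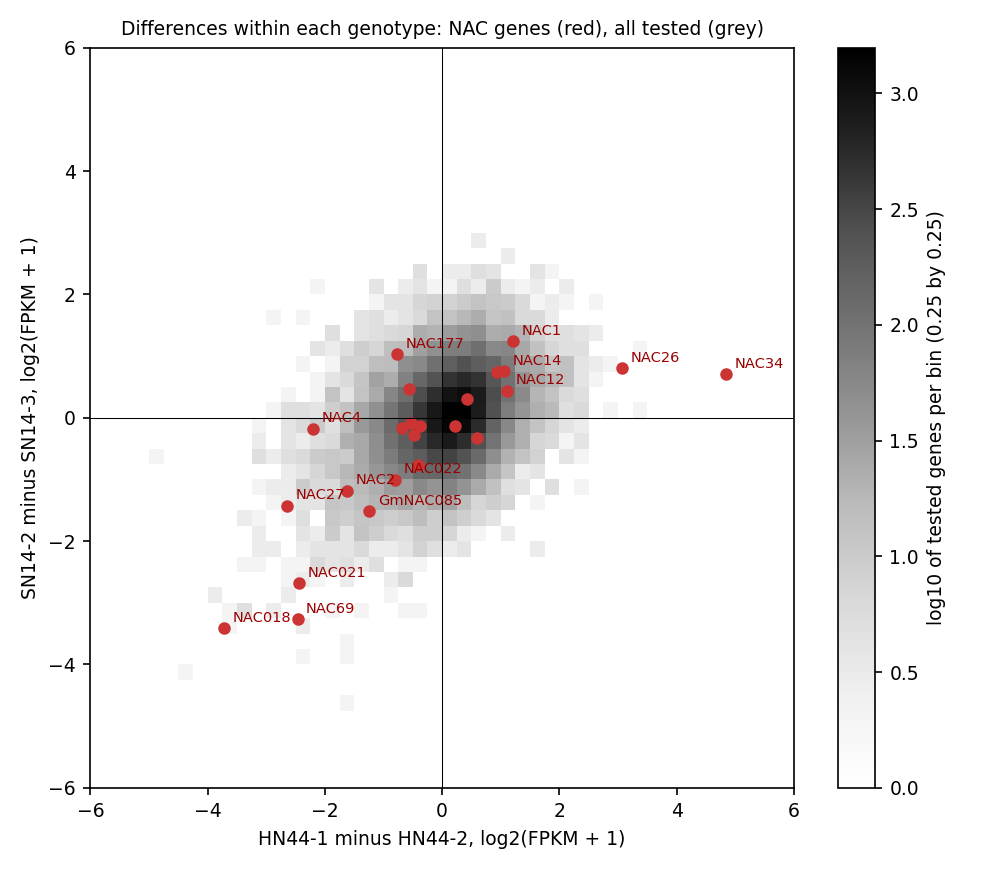
Difference between HN44-1 and HN44-2 (x axis) against that between SN14-2 and SN14-3 (y axis), both on log2(FPKM + 1), for the 24 tested NAC genes (red) over the number of tested genes per bin (grey, log10). NAC018, NAC69 and NAC021 lie far out at the lower left, and NAC26 and NAC34 far out on the right.

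SN14-1 was the low library for most members. It was the lowest SN14 library in 18 of 24 tested NAC genes, or 75.0%, against 30.1% of all tested genes, and the highest in none, against 42.3%. It was the lowest of all 6 libraries in 16 of the 24, or 66.7%, against 22.3% of all tested genes. SN14-3 was the highest SN14 library in 15 NAC genes and SN14-2 in 9. SN14-1 also had the highest summed FPKM of the leaf marker genes and HN44-1 the lowest, as given above. The part of this in the NAC values was not tested. Taken singly, 4 of the 6 leaf markers were highest of the SN14 libraries in SN14-1, and all 6 were lowest of all libraries in HN44-1.

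**Figure D5:**
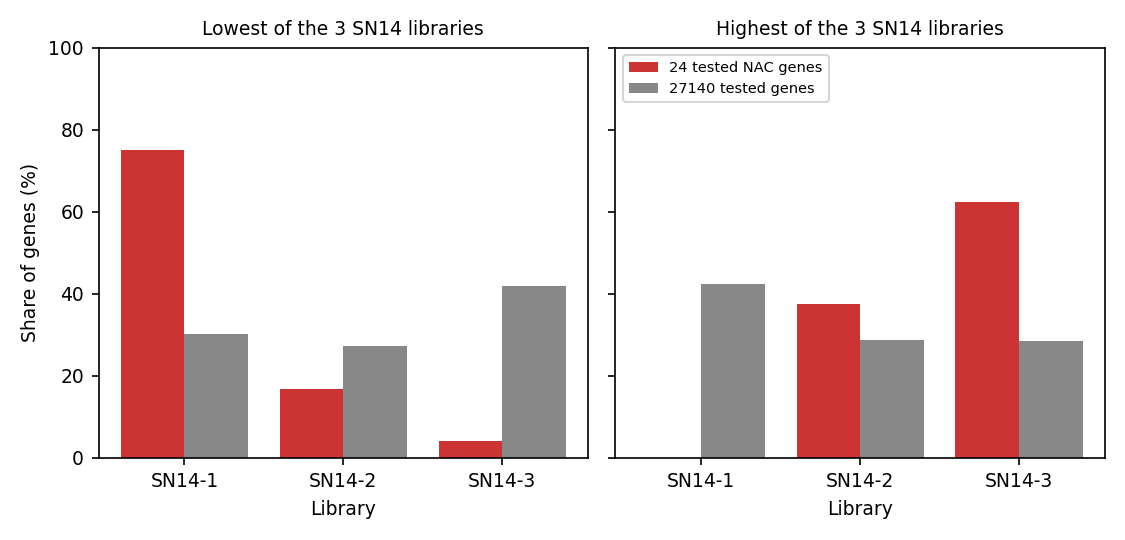
Share of genes, in percent, for which each SN14 library was the lowest (left) or the highest (right) of the 3, for the 24 tested NAC genes (red) and the 27140 tested genes (grey); ties are left out. SN14-1 was lowest for 75.0% of the NAC genes and 30.1% of all tested genes, and highest for no NAC gene.

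The 18 NAC genes that were not tested held low values, up to 4.63 FPKM. Of these, 7 reached 1 FPKM in 1 or 2 libraries and 11 in none. NAC35, NAC175 and NAC163 were found mainly in HN44-1 and HN44-3. NAC175 stood at 4.63, 0.34 and 2.57 FPKM in HN44 and at 0.30, 0.30 and 0.22 FPKM in SN14. NAC35 stood at 4.42, 0.07 and 3.35 FPKM against 0.27, 0.88 and 0.07 FPKM, and NAC163 at 2.73, 0.32 and 2.09 FPKM against 0.42, 0.20 and 0.10 FPKM. In all 3 genes HN44-2 was near the SN14 values, as in NAC34.

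NAC162 was the one member with higher values in every SN14 library than in any HN44 library. The share of all 41759 genes without overlap was not counted. Among the 27140 tested genes 10.5% were lower in HN44 in this way, and 23.3% were higher, as the untested NAC23 and NAC175 were. NAC162 was listed at 0 in HN44-1 and HN44-2 and stood at 0.04 FPKM in HN44-3, against 1.03, 0.82 and 0.89 FPKM in SN14. It reached 1 FPKM in a single library and so was not tested with the filter. With no filter it was the only NAC gene past the threshold, where 0.735% of 41759 genes were past it in that direction. The difference was -0.92 on log2(FPKM + 1), with a limma adjusted p of 0.0039. Its HN44 values were at or next to 0 and its SN14 values near 1 FPKM. With depth unknown, this p is weak support for a difference. It lies on chromosome 6, from 1116182 to 1118814, on the plus strand. NAC23 stood at 1.80, 0.97 and 1.13 FPKM in HN44 and at 0.41, 0.48 and 0.25 FPKM in SN14, without overlap, and did not pass in that fit (limma adjusted p = 0.0882). NAC51 stood between 0.37 and 1.86 FPKM and overlapped.

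NAC170, NAC173, GMNAC184 and LOC100817074, which has the synonym NAC8, never reached 1 FPKM. GmNAC019 (LOC100170711, also NAC17), NAC182, NAC166, NAC153 and NAC180 stood at 0.18 FPKM or less and were each listed at 0 in 3 to 5 libraries. None of these genes passed in limma with no filter. With depth unknown, a difference at such levels cannot be judged.

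The 42 members lie on 17 chromosomes, with 6 on chromosome 6 and 5 on chromosome 12, and none of their spans overlapped another gene of the table. The closest neighbours are LOC100817074 and NAC23 on chromosome 16, with 63026 bases between them, and both were among the low genes. NAC69 and GmNAC019 on chromosome 4 are 321149 bases apart, and while NAC69 reached 48.7 FPKM, GmNAC019 did not exceed 0.18 FPKM. Soybean genes often have close duplicates, between which reads may be divided, and this was not checked for these genes.

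Genes known to act with or below NAC factors were counted from lists of symbols. In the cell death route in which GmNAC81 acts, the N-rich proteins NRP-A and NRP-B stand upstream and a vacuolar processing enzyme downstream. Of 6 tested genes of this list 1 rose and none fell, where 2.33% of all tested genes rose and 1.44% fell. At an unadjusted p under 0.05 in limma there were 2, both higher in HN44, against 18.7% of all tested genes in that direction. With so few genes, these counts are no result about the route. VPE2, for a vacuolar processing enzyme, stood at 343, 80.7 and 229 FPKM in HN44 and at 25.7, 17.4 and 19.2 FPKM in SN14 (limma adjusted p = 0.0269, and 0.143 without HN44-3). It was higher in HN44-1 than in HN44-2, as were 66.2% of all tested genes. NRP-A stood at 56.7, 131 and 84.0 FPKM against 35.4, 20.3 and 33.5 FPKM, without overlap (limma adjusted p = 0.0648, and 0.253 without HN44-3), and it was highest in HN44-2. NRP-B, at 11.9, 22.9 and 17.2 FPKM against 13.8, 9.17 and 14.3 FPKM, and ERD15, which binds the NRP-B promoter, at 104, 209 and 144 FPKM against 118, 68.3 and 142 FPKM, overlapped between genotypes. The chaperone genes BIP4 and BIP2 overlapped too, at 1.61 to 9.23 and 1.66 to 2.43 FPKM. A second gene, named VPE, did not exceed 0.21 FPKM.

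In the other lists few genes passed, as among all tested genes, of which 3.78% did; at an unadjusted p under 0.05 the share of all tested genes was 27.3%, and 18.7% for genes higher in HN44. None of 13 tested genes for abscisic acid and drought passed in limma (2 of them had an unadjusted p under 0.05, both higher in HN44), none of 4 for chlorophyll breakdown and stay-green (4 at that p, 3 of them higher in HN44), and none of 12 for secondary walls and phenylpropanoids (3 at that p, all higher in HN44). The medians of their log2 fold changes were 0.48, 0.81 and 0.64, beside 0.17 for all tested genes. Of 27 tested isoflavonoid and phytoalexin genes, with a median of -0.01, CHR3 alone passed, and at an unadjusted p under 0.05 there were 3 higher and 4 lower in HN44. This chalcone reductase gene, one of several similar copies among which reads may be divided, stood at 146, 115 and 126 FPKM in HN44 and at 41.8, 61.4 and 58.2 FPKM in SN14 (limma adjusted p = 0.0272, and 0.17 without HN44-3).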

How the data were processed

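The authors' table gives FPKM per gene to 2 decimals beside start, end and strand, according to its headers; deposited as FPKM, the values carry no read totals. Tools listed in the submitters' processing notes, with no step assigned, are RSEM 1.2.12, HISAT2 2.0.4, DESeq2 1.4.5 and Bowtie2 2.2.5. No source used here names the genome build. Symbols, synonyms and chromosome numbers came from RefSeq assembly Glycine_max_v 4.0, which matched 37544 of 38907 NCBI gene numbers. Its coordinates were not used. Sequences were not used here, so the planned promoter search and protein comparison were left out.

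The main test was limma 3.58.1 (R 4.3.3, variance trend) on log2(FPKM + 1), for the 27140 genes that reached 1 FPKM in 3 or more libraries, with Benjamini-Hochberg adjustment and a threshold of 0.05. The script was tested on simulated data with independent libraries and the SN14 spread in both genotypes. That test does not cover a library that lies between the others, as HN44-3 does. Members and lists were chosen with earlier results of these data known. RDR3, PAO1 and CHIA1 were dropped from the lists because their names belong to other proteins. Values are given for members past the threshold, the 6 with the largest fitted change in each direction, the 6 most abundant and the 6 with the largest spread; values of other members were added after they had been seen. Alternatives were another pseudocount, other filters and scalings, no variance trend, a replicate block and leaving out libraries.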

Additional observations from a re-analysis of the deposited data

How the results depend on the processing

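The count of NAC genes past the threshold was 1 in the fit with 6 libraries. It was 0 with a pseudocount of 0.1, with median-of-ratios scaling, with quantile normalization and with the replicate block, and 0 to 1 when libraries were left out on the same genes or with the filter applied again, the second being chosen for 5 of the libraries after seeing the data. The gene past the threshold was NAC34 without HN44-2 and NAC1 without SN14-2, on the same genes and with the filter applied again (adjusted p 0.0458 and 0.0375 in the second case). NAC4 passed without HN44-1 on the same genes alone; it had met the filter only through HN44, was not tested once the filter was applied again, and 0 NAC genes then passed. With no filter it was NAC162. The log2 fold change of NAC22 was 0.73 to 1.03 over 14 alternatives, and its adjusted p was 0.0469 to 0.29 and past the threshold in 2 of them. Without SN14-1 the fold changes of NAC12, NAC11, NAC6 and NAC3 reversed to -0.012, -0.43, -0.12 and -0.60, and without SN14-3 that of NAC177 became -0.0098. Leaving out single libraries took them as high as 1.30, 0.73, 0.49, 0.69 and 0.51. Leaving out 1 library moved the fold of 12 of 24 tested NAC genes by over 1.5 times, NAC1, NAC4, NAC26, NAC27 and NAC34 among them. The cause was not tested. The 5 related lists held 6, 13, 4, 12 and 27 tested genes, ERD15 being shared. Of these genes 2 passed with 6 libraries, 4 with median-of-ratios scaling, 4 with quantile normalization, 0 with the replicate block and 0 to 5 without single libraries. Over all 27140 tested genes the count was 1025, against 962 and 964 with these scalings and 174 with the replicate block. Without single libraries it was 150 to 961 on the same genes, the lowest without HN44-3. It was 15 without HN44-3 with the filter applied again. Same-numbered libraries did not deviate together, with correlations of -0.223, -0.436 and 0.03, and the labels give no pairing, so the block rests on numbers alone. The median spread of NAC genes within HN44 and SN14 was 1.14 and 2.43 with a pseudocount of 0.1, and 0.88 and 1.72 with median-of-ratios scaling. Depth per library is unknown, which limits statements on genes under 1 FPKM.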
